A study of Rattus norvegicus with 9 samples.

Results

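The 8 genes described here encode the enzymes, transporters and inhibitor that set the supply of phosphate and pyrophosphate at the mineralizing surface: Alpl, Phospho1, Smpd3, Enpp1, Ankh, Slc20a1, Slc20a2 and Mgp. They were listed by name, and make up 8 of the 23026 genes in the tables. All 8 passed the filter on low counts, which kept 16874 genes, and the lowest count of any of them in any library was 347. Bone mRNA was sequenced from 9 female Sprague–Dawley rats in 3 groups of 3 libraries. The rats were 8 weeks old at purchase. Sham rats had fat next to the ovary removed and kept their ovaries, and received the vehicle sodium carboxymethyl cellulose (CMC-Na). OVX rats underwent bilateral ovariectomy, which models postmenopausal bone loss, and received 1% CMC-Na. OVX-AS-IV-High rats underwent the same ovariectomy and received astragaloside IV (AS-IV), a saponin of Astragalus root, at 80 mg/kg, and are called the treated group. Per the study's methods, AS-IV was prepared in 1% CMC-Na. All 3 groups were dosed by gavage for 8 weeks from 6 weeks after surgery. The labels give the CMC-Na of Sham replicates 1, 2 and 3 as 1%, 2% and 3%, whereas the study's methods name the same vehicle for Sham and OVX rats. Which is right was not settled, and the 3 libraries were kept as 1 group.

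Bone mineral is calcium phosphate, and its deposition depends on the local balance of inorganic phosphate and inorganic pyrophosphate. Pyrophosphate blocks the growth of hydroxyapatite crystals. The enzyme encoded by Alpl, tissue-nonspecific alkaline phosphatase, splits it to phosphate outside the cell, while Enpp1 makes it from ATP and Ankh controls its release. Inside matrix vesicles, Smpd3 (a neutral sphingomyelinase) frees phosphocholine from sphingomyelin and Phospho1 takes the phosphate from it. Slc20a1 and Slc20a2 carry phosphate with sodium across the cell membrane, and Mgp encodes matrix Gla protein, an inhibitor of soft tissue and cartilage calcification.

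The question of each comparison was whether these genes differed after ovariectomy (OVX vs. Sham), with treatment (OVX-AS-IV-High vs. OVX, called treated vs. OVX), or between treated and intact rats (OVX-AS-IV-High vs. Sham, called treated vs. Sham). The comparisons share libraries pairwise, so they are not independent of each other. The total count per library lay between 34874880 and 37298250. Markers of osteoblasts, osteocytes, chondrocytes and osteoclasts were all detected, as were those of muscle, blood, vessel and fat, and no listed marker found in the tables was at 0 in all libraries. Summed FPKM (fragments per kilobase of gene, scaled to library size) of the skeletal muscle list ran from 1230 to 7103 in Sham, 1288 to 2707 in OVX and 449 to 3782 in treated libraries. The osteoblast list summed to 3139 to 6490 in Sham, 5243 to 8779 in OVX and 2876 to 7482 in treated libraries. In bulk bone, fewer cells of a type and less RNA per cell cannot be told apart.

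Mgp was the most abundant of the 8 genes and Slc20a2 the least. Mean FPKM over the 9 libraries was 606 for Mgp, 49.3 for Alpl, 37.9 for Phospho1, 33.7 for Slc20a1, 29.0 for Ankh, 13.2 for Enpp1, 10.6 for Smpd3 and 2.02 for Slc20a2. Mgp, with 178 to 986 FPKM, lay above the range of Alpl in every library, which ran from 33.6 to 74.1 FPKM. The neighbours Alpl, Phospho1, Slc20a1 and Ankh had overlapping ranges, as did Enpp1 and Smpd3. Ankh (19.2 to 37.6 FPKM) and Enpp1 (9.96 to 15.5 FPKM) did not overlap, and Slc20a2 (1.24 to 2.61 FPKM) lay below Smpd3 (5.05 to 16.0 FPKM) in every library. The ratio of the highest to the lowest library in CPM (counts scaled to library size, with edgeR's TMM factors) was 5.44 for Mgp, 3.22 for Smpd3 and 1.49 for Slc20a1.

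Of the 8 genes, 0 passed the thresholds for a DEG (unadjusted p under 0.05 and absolute log2FC over 1) in any of the 3 comparisons. Over all genes tested, these thresholds called 3.11% in OVX vs. Sham, 0.83% in treated vs. OVX and 3.15% in treated vs. Sham. By unadjusted p alone, 2 of 8 genes, Slc20a1 and Phospho1, passed in OVX vs. Sham, where 16.4% of all genes did. Both were lower in OVX, a direction taken with such a p by 8.28% of all genes. The same 2 genes passed in treated vs. Sham, where 17.6% of all genes passed and 8.48% passed as lower, and 0 of 8 passed in treated vs. OVX, where 6.45% did. After adjustment by edgeR over all genes, 0 of the 8 and 0% of all genes had an adjusted p under 0.05 in each comparison. DESeq2 gave an adjusted p under 0.05 to 4.95% of genes in OVX vs. Sham, 0.22% in treated vs. OVX and 5.99% in treated vs. Sham, and to 2, 0 and 1 of the 8 genes in that order. The 3 libraries of one group lay wholly apart from those of the other for 2 of the 8 genes in OVX vs. Sham (23.3% of all genes), 0 in treated vs. OVX (12.7%) and 2 in treated vs. Sham (19.9%).

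**Figure D1:**
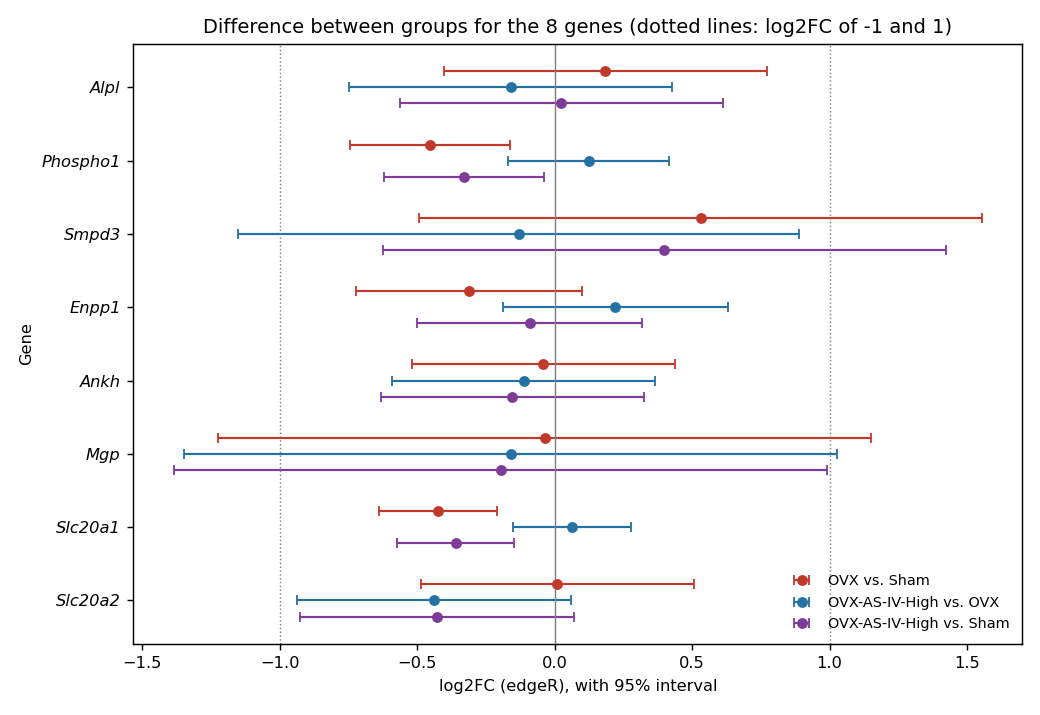
Log2FC from the edgeR fit (horizontal axis) for the 8 genes (vertical axis) in the 3 comparisons, with points at the estimate, bars for the 95% interval, and dotted lines at a log2FC of -1 and 1. The intervals of Slc20a1 and Phospho1 lie below 0 in both comparisons with Sham, and those of Mgp and Smpd3 are the widest.

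Slc20a1, the more abundant of the phosphate transporters, was lower in both ovariectomized groups than in Sham. Its level in Sham replicates 1, 2 and 3 was 193, 199 and 192 CPM. It was 162, 133 and 140 CPM in OVX and 146, 160 and 149 CPM in treated libraries. Every Sham library lay above every library of the other groups, and the OVX and treated libraries overlapped. In OVX vs. Sham the level was 0.745-fold that of Sham (95% interval, 0.643 to 0.864), a log2FC of -0.42 ± 0.10 (SE, n = 3 per group) with an edgeR adjusted p of 0.140. In treated vs. Sham the log2FC was -0.36 ± 0.09, with an edgeR adjusted p of 0.125. Treated vs. OVX gave a log2FC of 0.06 (95% interval, -0.15 to 0.28). The unadjusted p-values of edgeR in the comparisons with Sham were 0.00144 for OVX and 0.00397 for treated rats. DESeq2 gave Slc20a1 an adjusted p of 0.00218 in OVX vs. Sham and 0.0128 in treated vs. Sham. On simulated data, DESeq2 gave an adjusted p under 0.05 to more unchanged genes than edgeR did, 53 against 11. It also did so for more changed genes, 160 against 139. The simulated counts were drawn with edgeR's estimates of spread, and edgeR dropped some genes that DESeq2 kept. They therefore do not rank the tests on these data. The exact permutation test reached its smallest possible two-sided p for 3 libraries against 3, which is 0.1, in both comparisons with Sham.

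Markers of fat and vessels differed between the same groups by unadjusted p. Over all genes tested, 8.16% were higher and 8.28% lower by unadjusted p in OVX vs. Sham. In treated vs. Sham these shares were 9.17% and 8.48%. The DEG thresholds called 3.11% and 3.15% of all genes in these comparisons, both directions together. Of 8 adipocyte markers, 6 were higher in OVX vs. Sham by unadjusted p, 5 of them past the DEG thresholds, and 6 were past them in treated vs. Sham. Adipoq, which encodes adiponectin, had a log2FC of 1.35 and 1.77 in these comparisons and Lep, which encodes leptin, 2.56 and 1.53. The adipocyte list summed to 548 to 771 FPKM in Sham, 765 to 1060 in OVX and 773 to 984 in treated libraries. Of 8 markers of vascular smooth muscle and pericytes, 4 were lower in OVX vs. Sham, all past the DEG thresholds, and 3 in treated vs. Sham, 2 of them past the thresholds. Acta2 and Myh11, which encode contractile proteins of smooth muscle, had a log2FC of -1.35 and -1.55 in OVX vs. Sham and -1.13 and -1.29 in treated vs. Sham. The list summed to 139 to 417 FPKM in Sham, 76.6 to 173 in OVX and 76.5 to 193 in treated libraries. Of 8 endothelial markers, 2 were lower in OVX vs. Sham and 6 in treated vs. Sham by unadjusted p, with sums of 101 to 138 FPKM in Sham, 80.9 to 117 in OVX and 88.0 to 90.1 in treated libraries. Of 9 neutrophil markers tested, 3 and 5 were higher in these comparisons, with sums of 16453 to 23158 FPKM in Sham, 19691 to 25307 in OVX and 22620 to 27039 in treated libraries. No marker had an adjusted p of edgeR under 0.05 in any comparison, and the part of these markers in the lower Slc20a1 and Phospho1 was not tested.

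Slc20a2, the other phosphate transporter of the family, differed between OVX and Sham by less than the spread of the libraries. Sham libraries held 19.3, 16.9 and 13.5 CPM, OVX libraries 18.0, 15.5 and 16.5 CPM, and treated libraries 16.7, 9.40 and 10.8 CPM. Treated replicates 2 and 3 were below all other libraries, while treated replicate 1 lay within the range of both other groups. The log2FC was 0.01 ± 0.22 in OVX vs. Sham and -0.44 ± 0.22 in treated vs. OVX, where the unadjusted p of edgeR was 0.0774 (adjusted p = 0.826). With the replicate number as a block, although the labels pair no animals, the log2FC was -0.47. The unadjusted p of edgeR was then 0.0299 (adjusted p = 0.608). Under the block, 7.81% of all genes had an unadjusted p under 0.05. Without treated replicate 1 the log2FC was -0.72. Summed skeletal muscle FPKM was 3782, 1667 and 449 in treated replicates 1, 2 and 3, and its part in the result was not tested.

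Phospho1, the phosphatase that acts on phosphocholine in matrix vesicles, was the other gene lower after ovariectomy. Its level was 90.7, 78.3 and 101 CPM in Sham, 59.2, 61.0 and 77.1 CPM in OVX, and 68.1, 71.6 and 75.2 CPM in treated libraries. The Sham libraries were the 3 highest of the 9, and OVX replicate 3 came close to Sham replicate 2. In deposited FPKM these libraries crossed, at 38.6 for OVX replicate 3 and 38.3 for Sham replicate 2, so 1 gene in place of 2 separated the groups on that scale. The log2FC was -0.45 ± 0.13 in OVX vs. Sham (0.730-fold; 95% interval, 0.596 to 0.894), with an adjusted p of 0.167 by edgeR and 0.0376 by DESeq2. It was -0.33 ± 0.13 in treated vs. Sham, with an adjusted p of 0.238 by edgeR and 0.174 by DESeq2. The unadjusted p-values of edgeR were 0.00642 and 0.0304 in the same order. Treated vs. OVX gave 0.12 (95% interval, -0.17 to 0.41). The unadjusted p was under 0.05 in 14 of 14 alternative analyses for OVX vs. Sham and in 10 of 14 for treated vs. Sham.

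Phospho1 is also expressed by maturing red cells and by hypertrophic chondrocytes. The counts of their markers are set beside 8.28% of all genes lower and 8.16% higher in OVX vs. Sham by unadjusted p. In treated vs. Sham, 8.48% of all genes were lower and 9.17% higher. Of the 12 erythroid markers, 3 (Hba-a1, Hba-a2 and Hba-a3) were lower in OVX vs. Sham by unadjusted p, with a log2FC of -0.41 for Hba-a1, and 0 were higher. In treated vs. Sham, 0 were lower and 1 was higher, Hbb, with a log2FC of 0.68 (unadjusted p of edgeR, 0.0435). The log2FC of Hbb was 0.26 in OVX vs. Sham. The erythroid list summed to 95425 to 130564 FPKM in Sham, 78507 to 98889 in OVX and 96412 to 115107 in treated libraries. Of the 12 chondrocyte markers, 1 (Sox9) was lower in OVX vs. Sham with a log2FC of -0.67. In treated vs. Sham, 2 chondrocyte markers were lower by unadjusted p and 0 were higher. The list summed to 332 to 811 FPKM in Sham, 168 to 536 in OVX and 244 to 520 in treated libraries. The part of erythroid and chondrocyte markers in the lower Phospho1 was not tested.

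The promoters of Phospho1 and Alpl are shown because the genes act at neighbouring steps of phosphate release and the ratio between them, given with the other ratios, separated the Sham from the OVX libraries. Each sequence is the 250 bases before the annotated start, 5′ to 3′ on the gene's strand, from RefSeq on GRCr8. Capitals mark the GC box GGGCGG, the E-box CACGTG and the inverted CCAAT box ATTGG on either strand. Phospho1 lies on the plus strand at chr10:81258560-81258809 and Alpl on the minus strand at chr5:155289786-155290035.
Phospho1: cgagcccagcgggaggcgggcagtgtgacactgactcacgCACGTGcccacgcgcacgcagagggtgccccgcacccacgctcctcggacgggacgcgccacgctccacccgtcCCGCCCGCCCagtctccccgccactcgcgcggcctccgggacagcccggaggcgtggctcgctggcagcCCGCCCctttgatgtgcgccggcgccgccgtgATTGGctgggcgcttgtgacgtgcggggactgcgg
Alpl: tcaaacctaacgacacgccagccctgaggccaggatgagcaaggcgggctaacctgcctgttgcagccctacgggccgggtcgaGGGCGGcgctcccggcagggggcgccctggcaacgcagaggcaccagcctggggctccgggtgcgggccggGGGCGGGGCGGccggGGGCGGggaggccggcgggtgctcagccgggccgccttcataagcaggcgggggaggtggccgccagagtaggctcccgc
Both stretches had a GC content of 76%, against a median of 51.2% over 33469 promoters. Alpl held 4 matches to the GC box, of which the second and the third overlapped, and none to the E-box or the inverted CCAAT box. Phospho1 held 3 GC box matches, of which the first and the second overlapped, 1 E-box 210 bases before the start and 1 inverted CCAAT box 35 bases before it. Of all promoters in the same window, 30.5% held a GC box, 5.59% the E-box and 34.0% the inverted CCAAT box. The core of the cAMP response element, TGACG, was also searched and matched once in Phospho1, 19 bases before the start, and in 18.2% of all promoters. The RUNX core TGTGGT had no match in either and was held by 14.5% of all promoters. Of the 8 genes, 3 were in the promoter table: Ankh is the third, and Smpd3, Enpp1, Slc20a1, Slc20a2 and Mgp were not matched.

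Alpl, the alkaline phosphatase that marks bone-forming cells, showed no difference between groups beyond the spread of the libraries. Its level was 116, 112 and 154 CPM in Sham, 98.1, 195 and 140 CPM in OVX, and 93.7, 145 and 149 CPM in treated libraries. OVX held both a library below every Sham library and the highest library of all, so the groups overlapped. The log2FC was 0.18 ± 0.26 in OVX vs. Sham (95% interval, -0.40 to 0.77), -0.16 ± 0.26 in treated vs. OVX and 0.02 ± 0.26 in treated vs. Sham, with edgeR adjusted p-values of 0.733, 0.959 and 0.973. Bglap, which encodes osteocalcin and was named by the rule for pathway genes, was higher in OVX vs. Sham with a log2FC of 1.21 ± 0.39 and an edgeR adjusted p of 0.199.

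The spread of Smpd3 within Sham was larger than the difference between group means. Sham replicates 1 and 2 held 27.0 and 29.3 CPM and Sham replicate 3 held 81.1 CPM. The levels were 43.4, 68.3 and 86.9 CPM in OVX and 40.1, 86.9 and 54.2 CPM in treated libraries. All 6 libraries of ovariectomized rats lay above Sham replicates 1 and 2, and 4 of them lay below Sham replicate 3. The log2FC was 0.53 ± 0.46 in OVX vs. Sham (95% interval, -0.49 to 1.55; edgeR adjusted p = 0.561), -0.13 ± 0.45 in treated vs. OVX and 0.40 ± 0.45 in treated vs. Sham. Without Sham replicate 3, the log2FC was 1.23 in OVX vs. Sham and 1.10 in treated vs. Sham, with edgeR adjusted p-values of 0.105 and 0.131. Smpd3 was then past the DEG thresholds in both, but the share of all genes past them in that fit was not counted. Adjusted p-values were lower in that fit for other genes too. Phospho1 in OVX vs. Sham had an edgeR adjusted p of 0.152 at an unadjusted p of 0.0258. Sham replicates 1 and 2 had summed skeletal muscle FPKM of 7103 and 4961, against 1230 in Sham replicate 3, and summed osteoblast FPKM of 3139 and 3603, against 6490. The part of either in the Smpd3 levels was not tested.

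**Figure D2:**
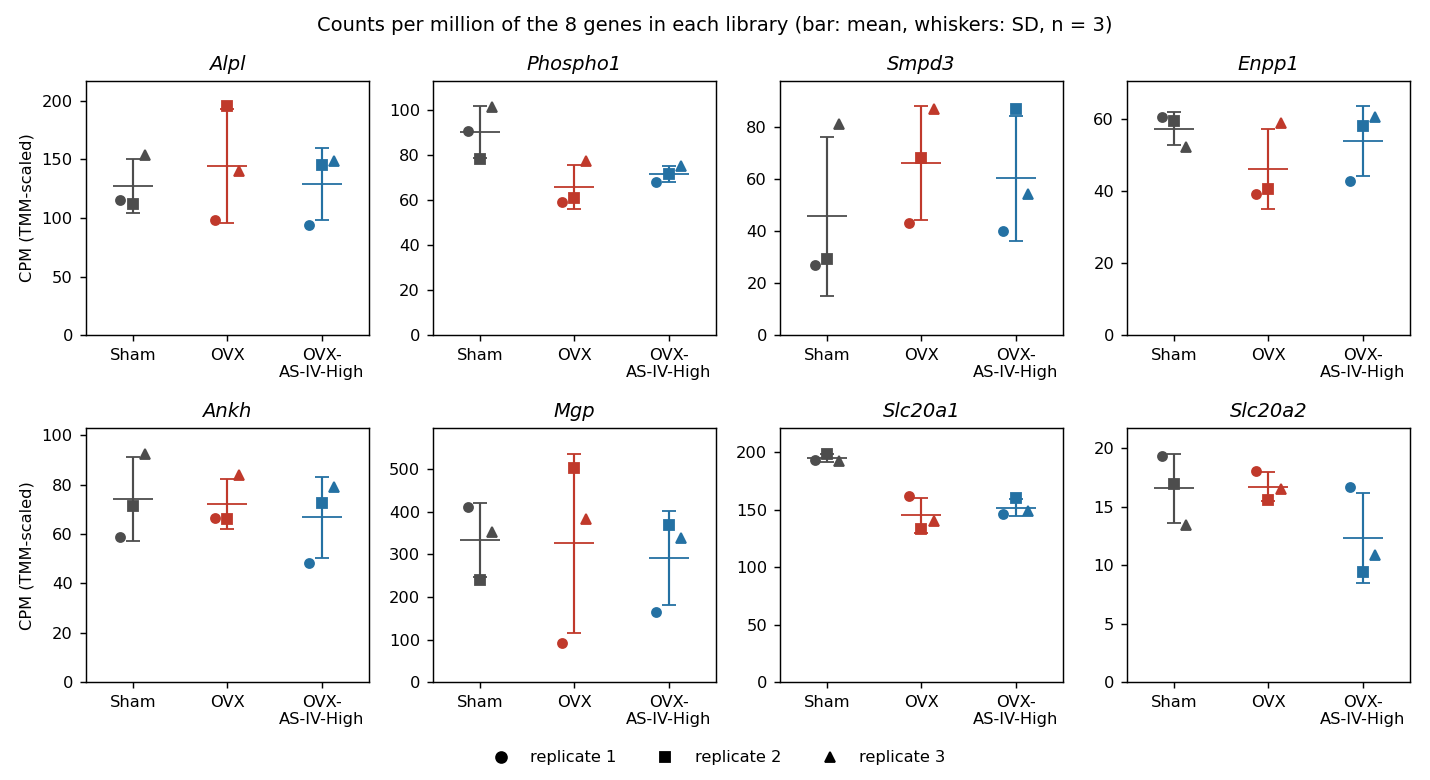
CPM (vertical axis, TMM-scaled) of the 8 genes in each library by group, with a symbol per replicate number, the horizontal bar at the mean and whiskers for the SD (n = 3). Slc20a1 in Sham sits between 192 and 199 CPM, above the other 6 libraries, whereas Sham replicate 3 stands apart from the other Sham libraries for Smpd3.

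The genes that supply pyrophosphate, Enpp1 and Ankh, did not pass the test in any comparison. Enpp1 held 60.6, 59.4 and 52.2 CPM in Sham, 39.2, 40.5 and 59.1 CPM in OVX, and 42.8, 58.1 and 60.7 CPM in treated libraries. OVX replicates 1 and 2 were below every Sham library, and OVX replicate 3 was within their range. Its log2FC was -0.31 ± 0.18 in OVX vs. Sham (unadjusted p of edgeR, 0.121; adjusted p = 0.400), 0.22 ± 0.18 in treated vs. OVX and -0.09 ± 0.18 in treated vs. Sham. Without OVX replicate 3 it was -0.53 in OVX vs. Sham and 0.44 in treated vs. OVX, with unadjusted p-values of edgeR of 0.0104 and 0.0247 (adjusted p = 0.382 and 0.937). Ankh held 58.9, 71.2 and 92.5 CPM in Sham, 66.5, 66.1 and 83.8 CPM in OVX, and 48.3, 72.5 and 79.2 CPM in treated libraries. The Ankh groups overlapped, treated replicate 1 being the lowest library of the 9. Its log2FC was -0.04 ± 0.21, -0.11 ± 0.21 and -0.15 ± 0.21 in OVX vs. Sham, treated vs. OVX and treated vs. Sham, with edgeR adjusted p-values of 0.936, 0.966 and 0.733.

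Mgp, the calcification inhibitor, had the widest spread of the 8 genes. It held 410, 239 and 352 CPM in Sham, 92.3, 502 and 382 CPM in OVX, and 165, 369 and 339 CPM in treated libraries. OVX contained both the lowest and the highest of the 9 libraries. The log2FC was -0.04 ± 0.53 in OVX vs. Sham (95% interval, -1.22 to 1.15), -0.16 ± 0.53 in treated vs. OVX and -0.20 ± 0.53 in treated vs. Sham. With edgeR adjusted p-values of 0.978, 0.991 and 0.874, no difference was detectable, and the interval in OVX vs. Sham took in the DEG threshold in both directions.

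Ratios of FPKM between genes of the same library do not depend on the library total. For 6 ratios between enzymes of opposite or successive steps and between the transporters, 18 differences between groups were tested with a two-sided exact permutation test, and the smallest p after Benjamini-Hochberg adjustment was 0.675. In Sham, Alpl/Phospho1 was 0.940, 1.05 and 1.12, beside 1.22, 2.36 and 1.34 in OVX and 1.01, 1.49 and 1.46 in treated libraries. Every OVX library exceeded every Sham library, and the mean log2 ratio differed by 0.60 (exact permutation p = 0.1). Slc20a1/Slc20a2 was 15.5, 18.2 and 22.1 in Sham, beside 13.9, 13.3 and 13.1 in OVX and 13.5, 26.3 and 21.3 in treated libraries. The OVX libraries lay within a narrow band below every Sham library, with a difference in mean log2 ratio of -0.45 (exact permutation p = 0.1). Treated replicate 1 lay within the OVX band, and treated replicates 2 and 3 lay above it. The groups overlapped in all comparisons for Alpl/Enpp1 and Alpl/Ankh, which set pyrophosphate removal against its supply, with mean log2 ratios that differed by 0.48 and 0.17 in OVX vs. Sham. They also overlapped throughout for Phospho1/Smpd3 and Alpl/Mgp, with differences of -1.12 and 0.46 in OVX vs. Sham. The ratio Alpl/Bglap, added after the values were seen, was 0.0982, 0.0602 and 0.0538 in Sham, beside 0.0277, 0.0367 and 0.0294 in OVX and 0.0520, 0.0294 and 0.0422 in treated libraries. All libraries of ovariectomized rats lay below all Sham libraries, by a mean log2 difference of -1.14 in OVX and -0.77 in treated libraries (exact permutation p = 0.1 for each). Bglap was named because it passed the DEG thresholds as higher in OVX vs. Sham in these same libraries (log2FC 1.21). The lower ratio in OVX follows from that choice, and the treated libraries were set against the same Sham libraries, so neither p is further support. This ratio was left out of the Benjamini-Hochberg adjustment.

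**Figure D3:**
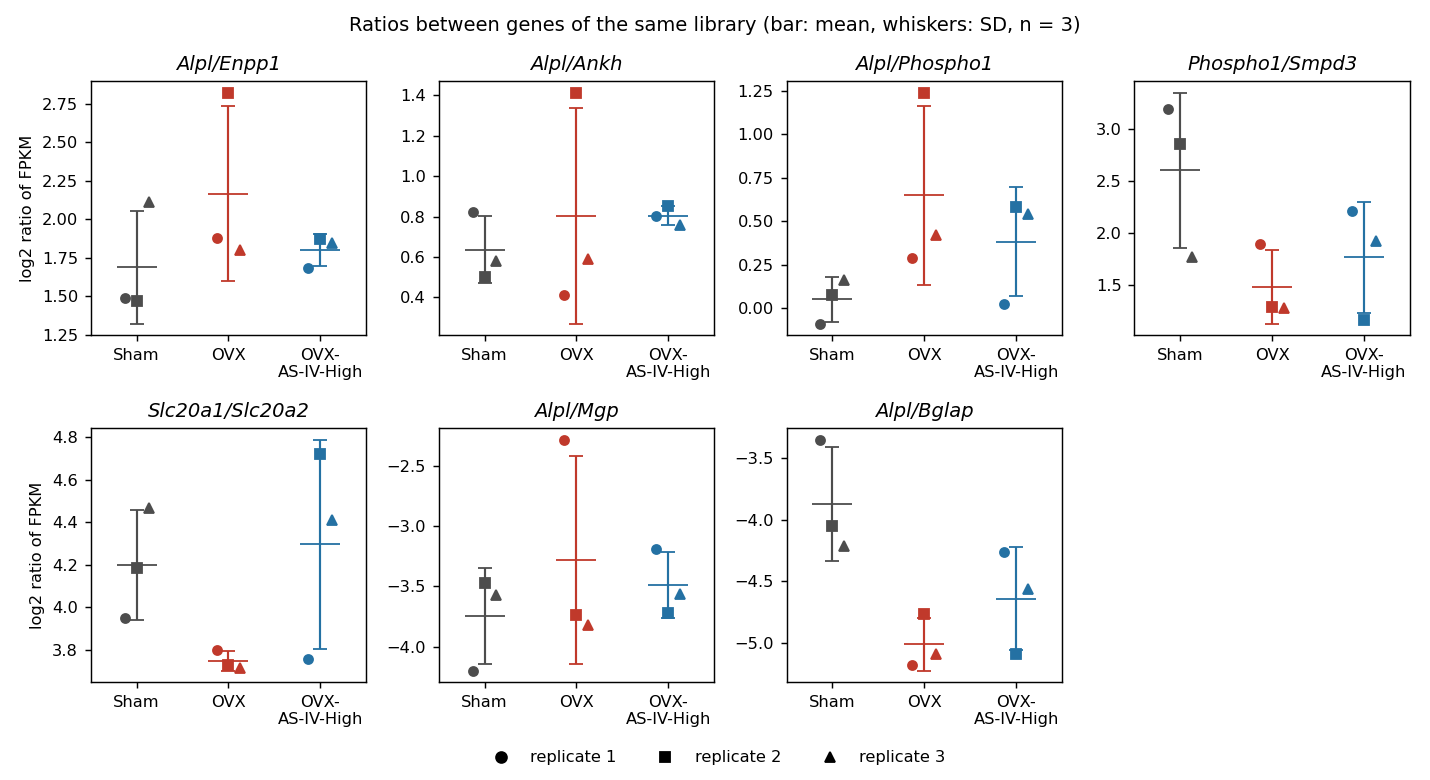
Log2 ratio of FPKM (vertical axis) between genes of the same library by group, with a symbol per replicate number, the bar at the mean and whiskers for the SD (n = 3). Alpl/Phospho1 is higher, and Slc20a1/Slc20a2 and Alpl/Bglap are lower, in every OVX library than in every Sham library. Bglap was named because it was higher in OVX in these libraries.

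Among the 8 genes, 28 pairs were compared over the 9 libraries by log2 CPM. By the exact permutation test 3 pairs passed at an unadjusted p of 0.05, and 0 after adjustment over the 28. The pair with the highest Pearson's r was Alpl and Mgp, with an r of 0.81 (exact permutation p = 0.00511, adjusted 0.143) and Spearman's rho of 0.67 (exact permutation p = 0.0589). Its r was 0.68 without the 2 libraries farthest from the median of Alpl and 0.87 for deviations from the group means. Alpl and Smpd3 had an r of 0.67 (exact permutation p = 0.0498, adjusted 0.376) and a rho of 0.58 (exact permutation p = 0.108), with an r of 0.71 without the 2 farthest libraries and 0.70 within groups. Phospho1 and Slc20a1 had an r of 0.68 (exact permutation p = 0.0460, adjusted 0.376) and a rho of 0.57 (exact permutation p = 0.121), with an r of 0.75 without the 2 farthest libraries. Within groups that r was -0.31, so the positive relation did not hold inside them. By rank, 1 pair passed at an unadjusted p of 0.05, Smpd3 and Slc20a2, with a rho of -0.80 (exact permutation p = 0.0138, adjusted 0.373) and an r of -0.61 (exact permutation p = 0.0845). Its r was -0.44 without the 2 farthest libraries and -0.80 within groups.

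Log2 CPM of each gene was compared with the summed FPKM of 5 marker lists, a comparison added after the values were seen, and 10 of 40 relations passed the exact permutation test at an unadjusted p of 0.05 and 0 after adjustment. Each sum is weighted toward the most abundant genes of its list. Examples are Sparc and Bglap (means of 1388 and 1223 FPKM) in the osteoblast list and Hba-a1 (59371.5 FPKM) in the erythroid list. With the osteoblast list, Smpd3 had an r of 0.89 (exact permutation p = 0.00253, adjusted 0.101) and a rho of 0.83 (exact permutation p = 0.00827), and r was 0.90 without the 2 farthest libraries and 0.92 within groups. Alpl had an r of 0.80 with the same list (exact permutation p = 0.0126, adjusted 0.126) and a rho of 0.78 (exact permutation p = 0.0172), and r was 0.72 and 0.86 by the same checks. With the chondrocyte list, Mgp had an r of 0.82 (exact permutation p = 0.00563, adjusted 0.109) and a rho of 0.65 (exact permutation p = 0.0666), and r was 0.76 and 0.85. Phospho1 had an r of 0.82 with that list (exact permutation p = 0.00820, adjusted 0.109) and a rho of 0.78 (exact permutation p = 0.0172), and r was 0.55 and 0.83. Phospho1 and the erythroid list had an r of 0.73 (exact permutation p = 0.0256, adjusted 0.128) and a rho of 0.62 (exact permutation p = 0.0857), and r was 0.22 without the 2 farthest libraries and 0.64 within groups. With the skeletal muscle list, r was -0.73 for Smpd3 (exact permutation p = 0.0251, adjusted 0.128; rho = -0.72, exact permutation p = 0.0369) and 0.69 for Slc20a2 (exact permutation p = 0.0410, adjusted 0.182; rho = 0.77, exact permutation p = 0.0214), and -0.96 and 0.43 without the 2 farthest libraries. With the osteocyte list, Enpp1 had an r of 0.75 (exact permutation p = 0.0187, adjusted 0.128) and a rho of 0.75 (exact permutation p = 0.0255), and r was 0.41 without the 2 farthest libraries and 0.92 within groups. Mgp had an r of 0.74 with the osteocyte list as well (exact permutation p = 0.0232, adjusted 0.128) and a rho of 0.60 (exact permutation p = 0.0968), and r was -0.036 and 0.76 by the same checks. Ankh had an r of 0.66 with the osteoblast list (exact permutation p = 0.0488, adjusted 0.194) and a rho of 0.55 (exact permutation p = 0.133), and r was 0.14 and 0.83. No test compared these relations between genes or between lists.

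**Figure D4:**
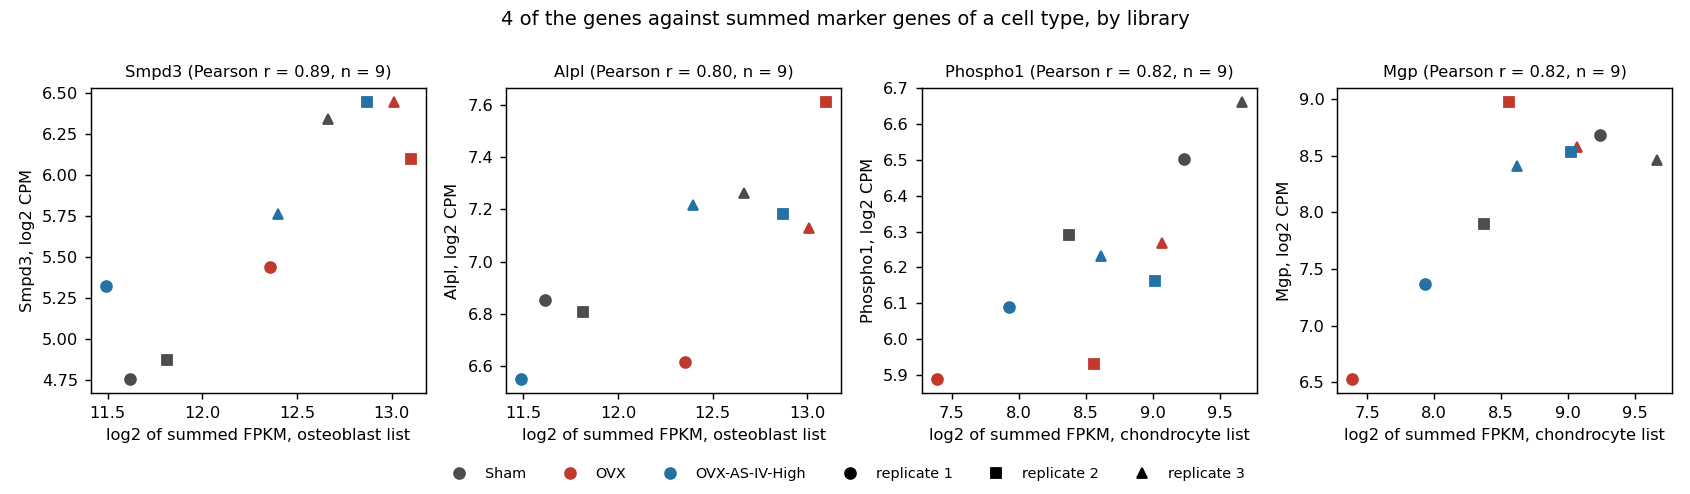
Log2 CPM of Smpd3, Alpl, Phospho1 and Mgp (vertical axes) against the log2 summed FPKM of the osteoblast or chondrocyte list (horizontal axes), with 1 point per library, coloured by group and with a symbol per replicate number. Points rise from left to right with r between 0.80 and 0.89, and for Mgp and Phospho1 OVX replicate 1 is lowest on both axes.

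For each gene, the genes most like it in pattern were those with the highest Pearson's r of log2 CPM over the 9 libraries among 14471 genes with a mean of at least 1 CPM. They were picked for the highest values of so many, and the names are given as a description. Slc20a1 was closest to Hgs (r = 0.98), Sertad3 (r = 0.96) and Zscan12 (r = 0.95). Phospho1 was closest to Repin1 (r = 0.96), Afap1l2 (r = 0.95) and Ccbe1 (r = 0.95), and Alpl to Whrn (r = 0.98), Crtap (r = 0.97) and B3gnt9 (r = 0.95). Smpd3 was closest to LOC100362339, Cgref1 and Atp6v1d, Ankh to Plxna1, Mars1 and Prmt5, Mgp to Gas1, Disp1 and Trpv4, and Slc20a2 to Tap2, Commd4 and Bfsp2, each with an r between 0.94 and 0.96. Enpp1 had the least close neighbours, Tvp23a, Twsg1 and Cyp4f39, with r between 0.90 and 0.91.

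The other genes of mineralization and phosphate handling were taken from 7 lists of 65 gene names without the 8, of which 60 were in the tables and 54 were tested. Among the names not found, Slc53a1 and Fsp1 are other names of Xpr1 and Aifm2, which were tested. In OVX vs. Sham, 6 were higher and 5 lower by unadjusted p, or 20.4% of those tested beside 16.4% of all genes. The median log2FC was 0.01 over the 54 genes and -0.01 over all genes. By the DEG thresholds, 1 was higher, Bglap, and 2 were lower: Fgf23, the phosphate-lowering hormone made by osteocytes, with a log2FC of -1.35 ± 0.46, and Alpg, another alkaline phosphatase, with a log2FC of -1.14 ± 0.46. Fgf23 was at 2.09, 1.43 and 2.88 FPKM in Sham, 0.755, 0.764 and 1.02 FPKM in OVX, and 0.387, 1.43 and 1.34 FPKM in treated libraries. Sham and OVX did not overlap for Fgf23, and its edgeR adjusted p was 0.208. Alpg had a mean of only 0.0911 FPKM, far below Alpl. Without Sham replicate 1, 1 of the 54 genes passed the thresholds in place of 3.

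In treated vs. OVX, 1 of the 54 genes, or 1.85%, passed by unadjusted p beside 6.45% of all genes, and 0 passed the DEG thresholds. It was Galnt3, which protects intact Fgf23 by glycosylation, with a log2FC of 0.32 ± 0.14. In treated vs. Sham, 6 were higher and 5 lower by unadjusted p, or 20.4% of the 54 beside 17.6% of all genes (9.17% higher and 8.48% lower). By the DEG thresholds, which 3.15% of all genes passed, 1 was higher, Phex, an osteocyte endopeptidase, with a log2FC of 1.03 ± 0.38. The 3 lower ones were Alpg (-1.62 ± 0.47), Cyp27b1, which activates vitamin D (-1.05 ± 0.44), and the cartilage protein gene Matn1 (-2.14 ± 0.90). Cyp27b1 and Matn1 had means of 0.131 and 0.400 FPKM. Without Sham replicate 1, 1 gene in place of 4 passed the thresholds, and without treated replicate 2 or 3, 2 did. No adjusted p of edgeR was under 0.05 for any of the 54 genes in any comparison.

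The counts by list are set beside 8.16% of all genes higher and 8.28% lower in OVX vs. Sham by unadjusted p, and most lists had 0 or 1 gene in each direction. The matrix vesicle annexins and channels had 3 of 8 genes higher in OVX vs. Sham by unadjusted p, Anxa1 (log2FC 0.51), Anxa2 (0.25) and Anxa6 (0.40). The most abundant gene of this list, at 952 FPKM, was Car2, which encodes a carbonic anhydrase, neither an annexin nor a channel. The sphingomyelinases and phosphocholine supply genes, which act beside Smpd3 and Phospho1, had 1 of 8 higher (Sgms2, a sphingomyelin synthase, 0.36) and 1 lower (Chkb, a choline kinase, -0.41), and Smpd1 was the most abundant at 34.6 FPKM. Of the mineral-binding matrix proteins and calcification inhibitors, 1 of 11 was higher (Bglap) and 1 lower (Ecm1, -0.62), and Sparc was the most abundant at 1388 FPKM. The Gla protein carboxylation list, which serves Mgp and osteocalcin, had 1 of 7 higher (Aifm2, a quinone reductase, 0.73), with Gas6 the most abundant at 156 FPKM. Of the other phosphate carriers 1 of 3 tested was lower (Slc37a1, -0.47), and the mitochondrial carrier Slc25a3 was the most abundant at 181 FPKM. The remaining lists had 1 of 8 (phosphate hormone axis, Fgf23) and 1 of 9 (other alkaline and pyrophosphate-handling enzymes, Alpg) lower and 0 higher, with Fgfr1 and Ppa1 the most abundant at 25.0 and 47.3 FPKM.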

How the data were processed

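Messenger RNA was purified from TRIzol extracts of frozen rat bone, and strand-specific libraries were sequenced as paired ends. Each group of 3 libraries came from separate animals. Per the study's methods, reads were cleaned with NGS QC Toolkit, aligned with Tophat and Bowtie2 and quantified with eXpress; the build, from the submitters' processing notes, is mRatBN7.2. The authors deposited, for 23026 genes (18206 protein-coding), a table of whole-number counts that were not normalized and a table of FPKM. How estimates of eXpress became whole numbers is not given in the sources used here. Where every library had 100 or more counts, in 11928 of 11928 genes, counts and FPKM gave the same gene length in all libraries within 1%.

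Differences in counts were tested by edgeR's quasi-likelihood method (edgeR 4.0.16, R 4.3.3) on all 9 libraries together, after TMM scaling and filterByExpr at its default minimum of 10 counts. A DEG needed both an absolute log2FC over 1 and an unadjusted p under 0.05, with Benjamini-Hochberg adjustment over 16874 genes. The common dispersion corresponded to a biological coefficient of variation of 0.256. For single values, two-sided exact permutation tests over libraries were used, whose smallest p for 3 against 3 is 0.1. Correlations used log2 CPM with a prior count of 2 and exact permutation p-values. Alternatives were DESeq2 1.42.0 on the same genes, RLE size factors, scaling without 21 muscle and globin genes, no filter, a fit of only the groups compared, limma 3.58.1 on log2(FPKM + 1) and log2(FPKM + 0.1), the replicate number as a block, a log2FC threshold of 0.58, and leaving out each library. Python 3.11.15, numpy 2.4.6, scipy 1.17.1, pandas 2.3.3 and matplotlib 3.10.9 were used.

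Deviations from the group means were correlated between libraries with the same replicate number. The r was 0.31, 0.158 and 0.13 for OVX with OVX-AS-IV-High. It was 0.2, -0.161 and 0.253 for Sham with OVX, and 0.314, -0.158 and 0.435 for Sham with OVX-AS-IV-High. Libraries with different numbers were not compared and the labels pair no animals, so these values cannot show pairing. The main tests used no block, and the block was an alternative only. Simulated data for OVX vs. Sham held 16874 genes, of which 200 were changed 3-fold, with counts drawn from edgeR's estimates of spread. After its filter, edgeR tested 16643 genes and gave an adjusted p under 0.05 to 139 changed and 11 unchanged genes. DESeq2, given all 16874 genes, did so for 160 and 53. The DEG thresholds, which use an unadjusted p, were passed by 185 changed and 225 unchanged genes by edgeR.

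The 8 genes and all lists were chosen with earlier results of these data known. Named genes are the 8, list genes past the thresholds in a comparison or most abundant in a described list, and for each of the 8 the 3 genes of closest pattern. List genes passing by unadjusted p alone (Anxa1, Anxa2, Anxa6, Sgms2, Chkb, Ecm1, Aifm2, Slc37a1, Galnt3, Sox9 and the globins) were named after their values were seen. Promoters came from RefSeq on GRCr8, another build than that of the tables, so their coordinates were used for nothing else. Columns of gene annotation held no comparisons of the authors.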

Additional observations from a re-analysis of the deposited data

How the results depend on the processing

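Slc20a1 kept its direction and an unadjusted p under 0.05 in 14 of 14 alternatives in both comparisons with Sham, with log2FC between -0.51 and -0.36 in OVX vs. Sham and between -0.40 and -0.33 in treated vs. Sham. The edgeR, DESeq2 and limma adjusted p over these alternatives ran from 0.00218 to 0.399 and from 0.0128 to 0.362. Phospho1 did so in 14 of 14 in OVX vs. Sham (-0.58 to -0.36; adjusted p 0.0376 to 0.399) and in 10 of 14 in treated vs. Sham (-0.41 to -0.24; adjusted p 0.174 to 0.465), losing it without Sham replicate 1 or 3 or without treated replicate 1 or 2.
Counted by unadjusted p alone, 2 of the 8 genes passed in OVX vs. Sham and 2 in treated vs. Sham, and 11, 1 and 11 pathway genes passed in OVX vs. Sham, treated vs. OVX and treated vs. Sham. With an absolute log2FC over 0.58, 5 pathway genes passed in OVX vs. Sham and 7 in treated vs. Sham. By limma on log2(FPKM + 1), 1 and 0 pathway genes passed in these comparisons, and on log2(FPKM + 0.1) 2 passed in treated vs. Sham. Separation of all libraries held for 1 of the 8 genes on FPKM in OVX vs. Sham. Leaving out single libraries, between 0 and 1 of the 8 genes passed in each comparison with Sham, and between 1 and 3 pathway genes in OVX vs. Sham and 1 and 5 in treated vs. Sham. The share of all genes that passed in these fits was not counted.
Values near 0 changed sign. By scaling without muscle and globin genes, Slc20a2 was at -0.0016 in OVX vs. Sham. By limma with a pseudocount of 1 and of 0.1, Ankh was at 0.00034 and 0.00079 in OVX vs. Sham, Mgp at 0.037 and 0.038 in treated vs. OVX, and Alpl at -0.00062 and -0.0011 in treated vs. Sham. Leaving out single libraries in OVX vs. Sham, Alpl ran from -0.093 to 0.40, Ankh from -0.19 to 0.15, Mgp from -0.49 to 0.41 and Slc20a2 from -0.12 to 0.13. In treated vs. OVX, Alpl ran from -0.38 to 0.12, Ankh from -0.25 to 0.072, Mgp from -0.60 to 0.29 and Smpd3 from -0.49 to 0.11. In treated vs. Sham, Alpl ran from -0.088 to 0.21, Ankh from -0.30 to 0.036, Enpp1 from -0.18 to 0.050 and Mgp from -0.41 to 0.086.
With the replicate block, 3, 1 and 3 of the 8 genes had an unadjusted p of edgeR under 0.05 in OVX vs. Sham, treated vs. OVX and treated vs. Sham, beside 18.2%, 7.81% and 21.3% of all genes, and 0 an adjusted one. The genes added were Smpd3 in OVX vs. Sham (0.66) and Slc20a2 in both others (-0.47 and -0.44), and Mgp was at 0.073 in treated vs. OVX. The block changed no other call among the 8 genes.
Correlations that changed sign without the 2 farthest libraries were those of Alpl with Phospho1 (-0.51) and Enpp1 (-0.82), Phospho1 with Slc20a2 (0.29), Smpd3 with Enpp1 (0.61) and Slc20a1 (0.15), and Slc20a1 with Ankh (-0.48) and Slc20a2 (-0.24). Within groups these were Phospho1 with Smpd3 (0.69) and Slc20a1 (-0.31), Smpd3 with Enpp1 (0.28), and Slc20a1 with Enpp1 (-0.051) and Slc20a2 (-0.082), and on FPKM Smpd3 with Enpp1 (0.0014). The cause was not tested for any of these changes. The 144 recomputed log2 ratios moved by less than the spread between libraries. For a ratio with 1 library left out this outcome was fixed in advance. With 3 libraries per group, such a move is always smaller than that spread. Ratios of CPM in place of FPKM could hardly move either, since gene length was equal in all libraries within 1%. Counts of 347 or more per library mean that the spread between 3 animals, not counting error, limits these comparisons.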
